A study of Homo sapiens with 6 samples.

Results

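CNN1 (calponin 1) and 9 further genes of the smooth-muscle contractile apparatus were followed in a human retinal pigment epithelial cell line in which the transcription factor FOXM1 was induced. The 10 genes were the calponins CNN1, CNN2 and CNN3, the smooth-muscle actin ACTA2, the transgelins TAGLN and TAGLN2, the myosin light chain MYL9, the tropomyosins TPM1 and TPM2, and caldesmon, CALD1. They were found by gene name in the authors' deposited comparison table, where all 10 were present among 13008 genes, and all 10 passed the filter on low values. The set was chosen by the difference of CNN1 between dox and no dox in these same libraries, so the dox values of CNN1 are given below as a description without a test.

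Polyadenylated RNA was sequenced from Tet-FLAG-FOXM1c-hTERT-RPE1, an epithelial line immortalised with telomerase in which tetracycline-type drugs switch on a tagged FOXM1c. Libraries of the dox group (n = 3, genotype label FOXM1 overexpression) came from cells given doxycycline at 1 µg/mL every 24 h for 48 h. Libraries of the no dox group (n = 3) carry the same line name, the genotype label WT and no treatment, so the drug and FOXM1 cannot be told apart. The sources used here do not say whether the line is 1 clone. FOXM1 itself had 65289, 66830 and 74976 normalised counts in dox replicates 1, 2 and 3 and 5009, 4383 and 4292 in the no dox replicates, which checks the labels. Taking the smallest step between CPM values as 1 read, library totals lay between 15094498 and 49882123 reads. Separate cultures are not named in the labels, and p-values thus measure the spread of these samples alone, which may be technical.

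In smooth muscle, contraction is driven by myosin II sliding along actin filaments, and it is switched on when myosin light chain kinase phosphorylates the regulatory light chain. Calponins, caldesmon and tropomyosins lie along the actin filament and regulate its use by myosin, and transgelins are small calponin-related proteins that bundle actin. Many of these genes are controlled by serum response factor (SRF) and its actin-sensing cofactors of the MRTF family. Outside muscle the same genes are expressed in myofibroblasts and in cultured cells that build stress fibres, and retinal pigment epithelial cells can take on such a state when they lose their epithelial character.

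Markers of the labelled cell type and of smooth muscle were each present in part. Of 16 pigment epithelium markers, 9 stayed below 0.1 FPKM in all libraries, TTR was listed at 0 throughout, and the visual-cycle gene RPE65 reached at most 0.22 FPKM. The transcription factor genes MITF (2.06 to 2.23 FPKM) and OTX2 (1.91 to 3.14 FPKM) and the keratin genes KRT8 and KRT18 were measured in every library. MYH11, the smooth-muscle myosin heavy chain, was at most 0.02 FPKM, desmin (DES) at most 0.086 FPKM, and myocardin (MYOCD), the muscle-restricted SRF cofactor, was listed at 0 in all 6 libraries. Of the 23 smooth-muscle genes listed, 8 stayed below 0.1 FPKM in every library and 15 passed the filter on low values. Among the 15 were LMOD1, a leiomodin that nucleates actin filaments, at 14.7 to 26.9 FPKM, and smoothelin, SMTN, at up to 7.21 FPKM. Endothelial and blood cell markers summed to at most 0.188 FPKM over the 7 matched of 8 listed genes.

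CNN1, the calponin most restricted to differentiated smooth muscle, was present at a low level and was higher in dox. Its normalised counts, a depth-equalised value deposited by the authors, were 177.5, 162.9 and 158.7 in the dox libraries, by replicate number. Without dox they were 62.28, 29.85 and 42.97. All dox values exceeded all no dox values, and the dox libraries were closer to each other than the no dox libraries were. The means were 166.4 ± 9.87 and 45.0 ± 16.3 (SD, n = 3 each), a 3.69-fold difference, or 1.92 on the log2(normalised count + 1) scale (SE 0.26). Within replicate numbers 1, 2 and 3 the fold was 2.85, 5.46 and 3.69, so the number with the highest no dox value had the smallest fold. Few reads stood behind these values, between 19 in no dox replicate 3 and 278 in dox replicate 2. In bulk RNA, more cells with CNN1 transcripts and more transcripts per cell cannot be told apart. The authors' deposited table gave CNN1 a log2 fold change of 1.89. That value comes from the same libraries and is no separate support.

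The 2 widely expressed calponins did not follow CNN1. CNN2, the form linked to the cytoskeleton of motile and proliferating cells, had 16823, 14545 and 15703 normalised counts in dox replicates 1, 2 and 3, against 17374, 14130 and 14332 in no dox. The groups overlapped, and the change was 0.04 (SE 0.11, limma adjusted p = 0.926). CNN3, the acidic calponin, was the steadiest of the 10 genes, with 14334 to 14472 normalised counts in the treated libraries and 14472 to 14686 in the others. All dox values of CNN3 lay below all no dox values, but the closest were less than 1 normalised count apart. The change was -0.01 (SE 0.07, limma adjusted p = 0.969). Per unit of merged exon length, CNN1 made up 0.586% to 0.609% of the summed level of the 3 calponins in the dox libraries and 0.119% to 0.217% in the no dox libraries. CNN3 made up 51.9% to 55.8% and 51.9% to 56.7%, and CNN2 the rest.

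CNN1 (ENSG00000130176) lies on the plus strand of chromosome 19 from 11649532 to 11661138, and CNN2 (ENSG00000064666) on the same strand of chromosome 19 from 1026298 to 1039068, both in hg19. CNN3 (ENSG00000117519) lies on the minus strand of chromosome 1 from 95362507 to 95392834. The nearest gene downstream of CNN1 in the comparison table, ELOF1, a transcription elongation factor, has its nearer end, the 3′ end, 824 bases away on the opposite strand. Its change was 0.02 (limma adjusted p = 0.947), and that of ECSIT on the other side of CNN1 was 0.29 (limma adjusted p = 0.136, and 0.00599 when the replicate number was a block). The upstream sequences of CNN1 and CNN2 are shown because they belong to the calponin that differed between the groups and to one that did not. Each is the 250 bases before a RefSeq transcript start (GRCh38.p14, plus strand, chr19:11538601-11538850 for CNN1 and chr19:1026358-1026607 for CNN2), and capitals mark matches to the motifs named after them.
CNN1: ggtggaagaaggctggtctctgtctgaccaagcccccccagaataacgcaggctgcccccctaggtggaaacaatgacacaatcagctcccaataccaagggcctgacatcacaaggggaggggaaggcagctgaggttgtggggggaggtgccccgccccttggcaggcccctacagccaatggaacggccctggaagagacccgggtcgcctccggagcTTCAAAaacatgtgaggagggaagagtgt
CNN2: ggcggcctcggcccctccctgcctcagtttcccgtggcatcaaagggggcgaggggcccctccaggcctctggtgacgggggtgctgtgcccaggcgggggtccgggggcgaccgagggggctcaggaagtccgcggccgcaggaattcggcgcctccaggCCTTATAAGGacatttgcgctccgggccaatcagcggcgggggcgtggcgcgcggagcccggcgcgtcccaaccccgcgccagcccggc

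These windows were searched on both strands for exact matches to the CArG box, the element bound by SRF, to TAAACA, a forkhead-type core, to TTTGAA, the core of the cell cycle homology region, and to CATTCC, the core bound by TEAD factors. None of these 4 motifs contains another. The CNN1 window held 1 match, to TTTGAA on the strand opposite to the one printed (TTCAAA, first base at -29 from the start). The CNN2 window held 1 CArG box (CCTTATAAGG, first base at -89). Of 35116 promoter windows of the same length, 1.16% held a CArG box, 11% TAAACA, 13.3% TTTGAA and 11.9% CATTCC. Promoter entries were found for 8 of the 10 genes, all but TAGLN and MYL9. Of these 8, CNN2 was the 1 gene with an exact CArG box in its window. A match describes letters and is not a measured binding site.

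**Figure D1:**
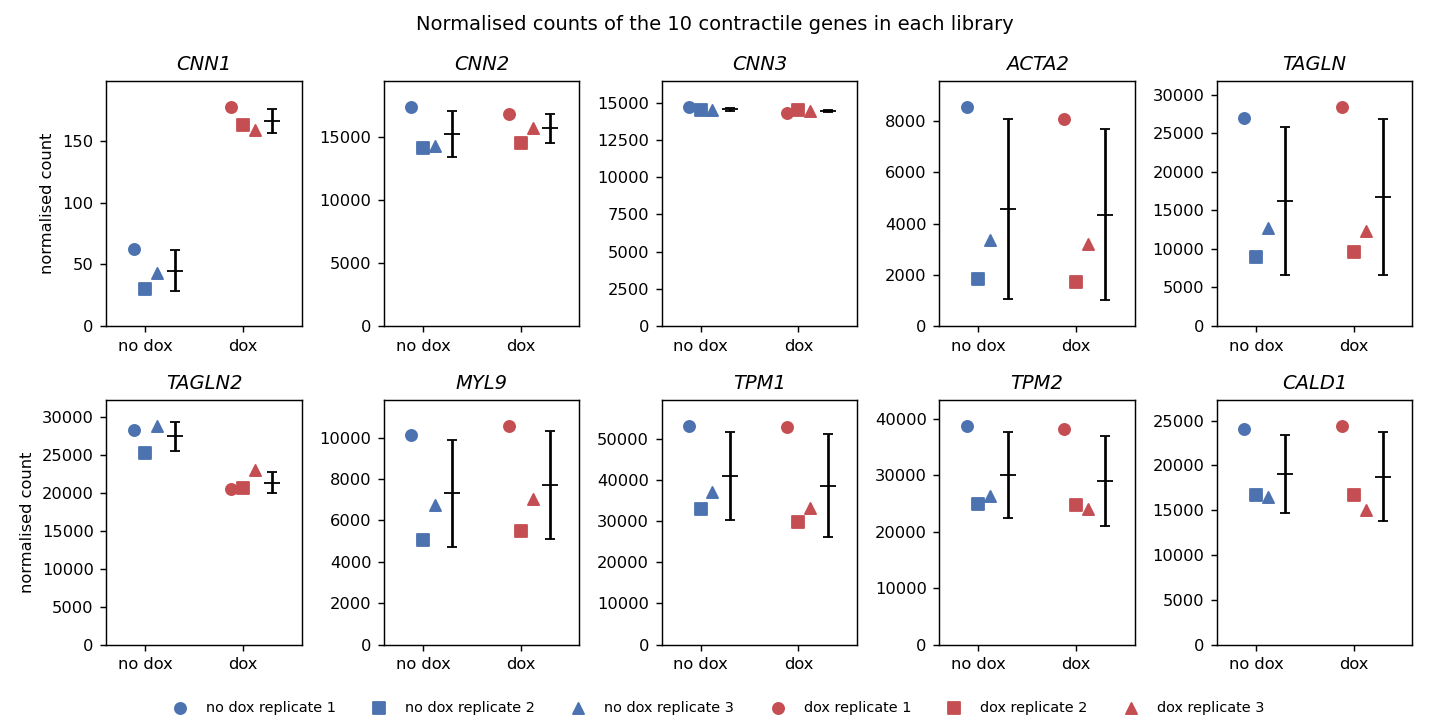
Normalised counts (vertical axes, each from 0) of the 10 genes in the no dox (blue) and dox (red) libraries, with replicate numbers as symbols and the mean ± SD (n = 3) in black. CNN1 lies higher in all dox libraries and TAGLN2 lower, while ACTA2, TAGLN, MYL9, TPM1, TPM2 and CALD1 are highest in replicate 1 of both groups.

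ACTA2, the actin isoform of smooth muscle and myofibroblasts, differed greatly between replicate numbers and little between dox and no dox. In order of replicate number it had 8104, 1726 and 3195 normalised counts with dox and 8545, 1824 and 3361 without. Replicate 1 was highest and replicate 2 lowest in both groups, with a 4.69-fold span within dox and a 4.68-fold span within no dox. Within each replicate number the dox library was slightly lower, by folds of 0.948, 0.946 and 0.950. The change of -0.08 (SE 0.66) had a limma adjusted p of 0.981, and of 0.207 with the replicate number as a block (SE 0.040). ACTA2 (ENSG00000107796) lies on the minus strand of chromosome 10 from 90694831 to 90751147 of hg19. It overlaps FAS and STAMBPL1 on the opposite strand. FAS was also highest in replicate 1 of both groups (1561 and 1633 normalised counts, against 968.4 to 1148 in the other 4 libraries), whereas STAMBPL1 lay between 627.2 and 719.6. The sources used here do not say whether reads were counted by strand, so reads of overlapping genes cannot be told apart.

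RefSeq lists 2 starts for ACTA2. The 250 bases before the downstream one (GRCh38.p14, minus strand, chr10:88952774-88953023) are shown because ACTA2 had the widest spread over replicate numbers. They held a match to TAAACA (printed as TGTTTA, first base at -236) and a match to CATTCC (printed as GGAATG, first base at -183), both on the strand opposite to the one printed and in capitals. No exact CArG box was among these letters. Near matches were not counted, and the stretches ccctatatgg and ccttgtttgg in this window each differ from the CArG pattern by 1 base.
ACTA2: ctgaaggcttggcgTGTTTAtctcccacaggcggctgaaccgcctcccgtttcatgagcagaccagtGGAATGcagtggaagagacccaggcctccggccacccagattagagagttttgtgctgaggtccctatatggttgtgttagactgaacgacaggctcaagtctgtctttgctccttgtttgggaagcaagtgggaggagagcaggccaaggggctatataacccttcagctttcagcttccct

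TAGLN (SM22, an early smooth-muscle differentiation gene) had 28377, 9610 and 12364 normalised counts with dox (replicates 1, 2 and 3) and 27036, 8961 and 12660 without. As for ACTA2, replicate 1 was highest and replicate 2 lowest in both groups, and the groups overlapped. The dox change was 0.05 (SE 0.48, limma adjusted p = 0.985, and 0.498 with the block). TAGLN (ENSG00000149591, chromosome 11 from 117070037 to 117075498, hg19, plus strand) overlaps PCSK7 on the opposite strand, which had 3029 and 3046 normalised counts in the replicate 1 libraries and 1615 to 1792 in the others.

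TAGLN2, a transgelin of many non-muscle cells, had lower values in dox. It had 20456, 20576 and 22979 normalised counts in dox replicates 1, 2 and 3, against 28287, 25258 and 28843 in no dox. All dox values were below all no dox values, and the folds within replicate numbers were 0.723, 0.815 and 0.797. The change of -0.36 did not pass without the replicate number as a block (SE 0.10, limma adjusted p = 0.164). It passed with the block (SE 0.048, limma adjusted p = 0.000792). In the authors' deposited table the log2 fold change of TAGLN2 was -0.36 with an adjusted p of 0.36. TAGLN2 (ENSG00000158710) lies on the minus strand of chromosome 1 from 159887897 to 159895522 of hg19.

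MYL9, a regulatory light chain of smooth-muscle and non-muscle myosin II, had the same order of replicate numbers as ACTA2 in both groups. It had 10568, 5502 and 7025 normalised counts with dox (replicates 1, 2 and 3) and 10109, 5069 and 6717 without. All 3 replicate numbers were slightly higher in dox, with folds of 1.05, 1.09 and 1.05. Limma gave a change of 0.08 (SE 0.29) with an adjusted p of 0.944, and of 0.171 with the block. MYL9 (ENSG00000101335) lies on chromosome 20 from 35169887 to 35178228 of hg19 on the plus strand.

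The tropomyosins and caldesmon, which coat the actin filament, were high in replicate 1 and near each other in replicates 2 and 3. TPM1 had 52860, 29698 and 33161 normalised counts with dox (replicates 1, 2 and 3) and 53177, 32875 and 37114 without. TPM2 had 38213, 24661 and 23963 in dox and 38735, 24954 and 26337 in no dox. CALD1 had 24412, 16698 and 15065 in dox and 24071, 16678 and 16442 in no dox. For each of these 3 genes the groups overlapped and the replicate 1 libraries of both groups lay above the other 4 libraries. Their dox changes were -0.11 for TPM1, -0.06 for TPM2 and -0.03 for CALD1, with limma adjusted p-values between 0.920 and 0.971, and between 0.156 and 0.624 with the block. TPM1 (ENSG00000140416) lies on chromosome 15 from 63334831 to 63364114, TPM2 (ENSG00000198467) on chromosome 9 from 35681989 to 35691017, and CALD1 (ENSG00000122786) on chromosome 7 from 134429003 to 134655479, all in hg19.

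In the comparison of dox with no dox, none of the 9 genes other than CNN1 passed limma without the replicate block. Of the 13153 tested genes 0.54% did (0.319% higher and 0.22% lower). At an unadjusted p under 0.05, 1 of the 9 did, TAGLN2, beside 13.0% of all tested genes, and the authors' deposited table marked 0 of the 9 as up or down. With the replicate number as a block, 1 of the 9, TAGLN2, was lower, where 12.4% of all genes were lower, 10.2% higher and 22.5% changed in either direction. The dox and no dox libraries did not overlap for 3 of the 10 genes (CNN1, CNN3 and TAGLN2), against 19.1% of all tested genes. The contrast was in view when the genes were chosen, so nothing is read from these counts. The median change of the 10 genes was -0.02, and that of all tested genes was -0.002. In all, 71 tested genes passed. The number was 21, 5 and 4 without dox replicates 1, 2 and 3 in turn, and 16, 8 and 3 without the untreated ones in turn.

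**Figure D2:**
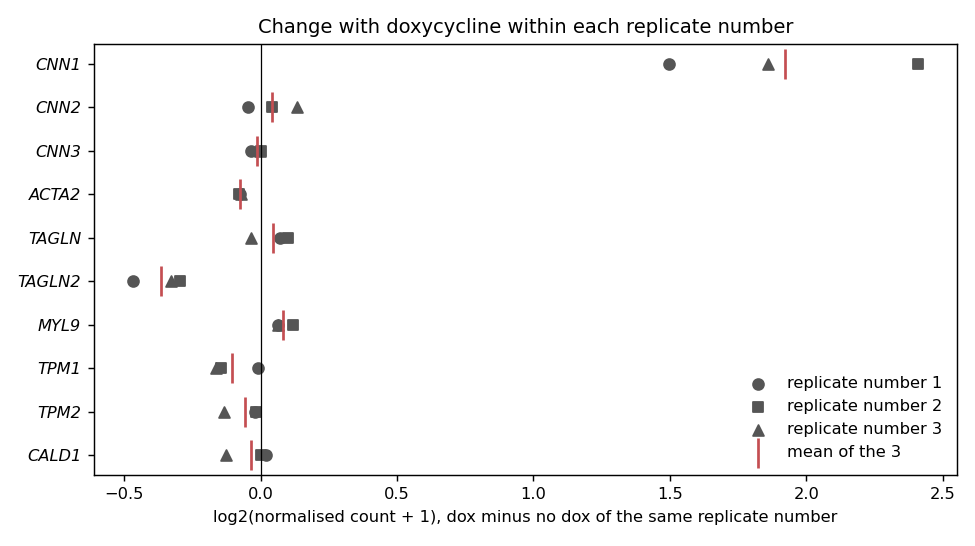
Log2 change of the 10 genes (dox minus no dox, horizontal axis) within replicate numbers 1, 2 and 3 (symbols), with their mean as a red bar. CNN1 lies at 1.5, 2.41 and 1.86, TAGLN2 at -0.47, -0.30 and -0.33, and the other 8 genes between -0.16 and 0.13.

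The replicate numbers were then compared, a difference that the rule for choosing the 10 genes did not use. This test was added after the values were seen. The replicate number was tested beside the dox term by a limma F test over all genes. Of the 10 genes 7 differed between replicate numbers, namely ACTA2 (limma adjusted p = 2.35e-08), TAGLN (3.83e-07), MYL9 (6.02e-06), TPM1 (6.05e-05), TPM2 (7.27e-05), CALD1 (0.000102) and CNN2 (0.0139). Over all tested genes 40.5% did. CNN1 (limma adjusted p = 0.124), TAGLN2 (0.0848) and CNN3 (0.995) did not pass. For the 7 genes both replicate 1 libraries lay above the other 4, which held for 18.5% of all tested genes.

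The 10 genes differed widely in the size of this spread. The mean of both libraries of a replicate number spanned 2.23 on the log2 scale for ACTA2 (4.69-fold), 1.58 for TAGLN, 0.97 for MYL9, 0.76 for TPM1, 0.63 for TPM2 and 0.62 for CALD1. It spanned 0.25 for CNN2, 0.18 for TAGLN2 and 0.005 for CNN3. A span as large as that of ACTA2 was found for 0.601% of tested genes, and one as large as that of TAGLN for 1.16%. The median span was 0.63 over the 10 genes and 0.25 over all tested genes. CNN1 spanned 0.58, of which the 3 dox libraries showed little (158.7 to 177.5 normalised counts).

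**Figure D3:**
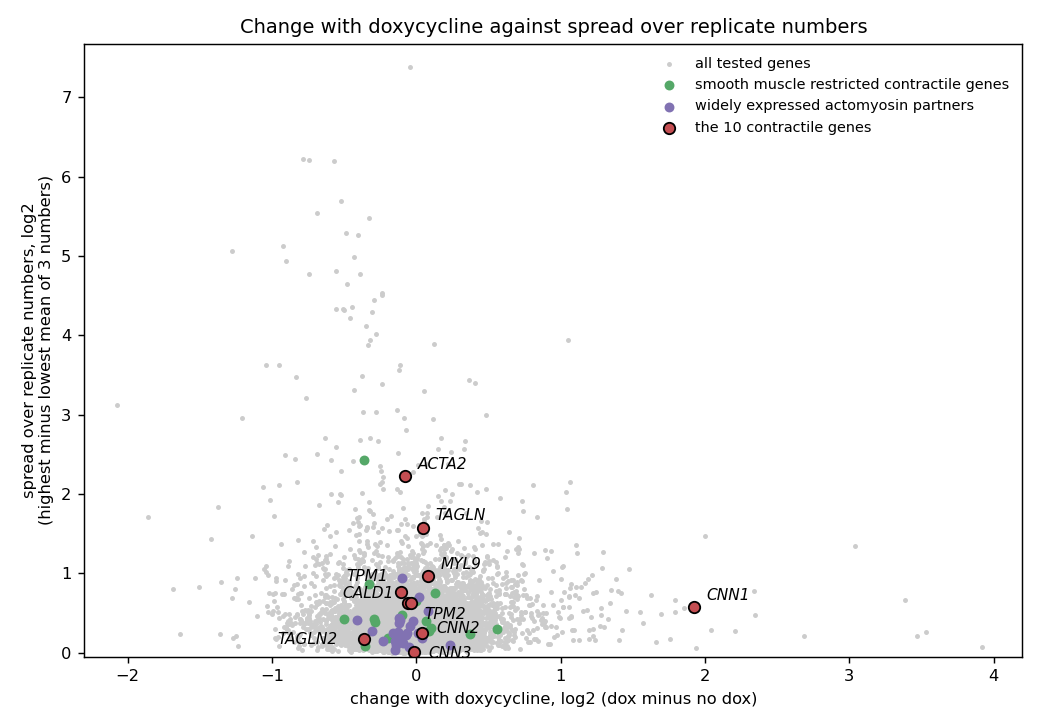
Each point is a tested gene, with its log2 change with doxycycline on the horizontal axis and its log2 spread over the 3 replicate numbers on the vertical axis. Of the 10 genes (red), CNN1 lies far to the right, ACTA2 (2.23) and TAGLN (1.58) lie highest, MYL9, TPM1, TPM2 and CALD1 lie between 0.62 and 0.97, and CNN2, CNN3 and TAGLN2 lie lowest.

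Other markers were read in the same libraries. The 11 fibroblast markers summed to 54.5, 49.1 and 45.2 FPKM in dox replicates 1, 2 and 3 and to 64.3, 52.4 and 51.1 FPKM in no dox, with THY1 and COL1A1 making up 62.0% to 74.0% of each sum. Both replicate 1 libraries lay above the other 4 for 3 of the 8 tested markers (COL1A1, DCN and POSTN), beside 18.5% of all tested genes. Of these, DCN reached at most 0.048 FPKM and POSTN at most 0.10 FPKM. Within each group taken alone, replicate 1 was highest for 5 of the 11 markers (COL1A1, COL1A2, DCN, THY1 and POSTN). It was lowest in both groups for 2 of the 11 (PDGFRA and PDGFRB). PDGFRB, a growth factor receptor of mesenchymal cells, was 9.417 and 10.09 FPKM in the replicate 1 libraries and 11.18 to 13.13 FPKM in the others. COL1A1, the collagen I chain, was 11.97 and 12.71 FPKM in the replicate 1 libraries and 5.64 to 8.28 FPKM in the others, while COL1A2, COL3A1 and LUM stayed below 0.1 FPKM in every library. The 16 pigment epithelium markers summed to 96.5, 73.4 and 104 FPKM in dox and 76.7, 60.1 and 83.4 FPKM in no dox. The general epithelial keratins KRT8 and KRT18 made up 90.9% to 95.3% of each sum, so it describes these 2 genes. OTX2 was lowest in replicate 1 (1.91 and 2.10 FPKM). The part of these markers in the spread of ACTA2 and TAGLN was not tested. In both groups replicate 3 had the fewest reads and replicate 2 the most, and the part of depth was not tested.

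Further smooth-muscle genes also differed between replicate numbers. Of 23 listed genes associated with smooth muscle, 15 were tested, and 11 of these passed the replicate test, beside 40.5% of all tested genes. ACTG2, the enteric smooth-muscle actin, stood out with a span of 2.43 on the log2 scale at 25.5 and 29.4 mean normalised counts in dox and no dox, a low gene that shares sequence with ACTA2. LMOD1 spanned 0.75, the small heat shock protein HSPB7 0.87 and tensin, TNS1, 0.66. Both replicate 1 libraries were above the other 4 for 8 of the 15, beside 18.5% of all tested genes.

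With dox, none of the 15 passed limma over all genes (4 had an unadjusted p under 0.05, beside 13.0% of all tested genes, median change -0.10). With the block 2 were higher and 6 lower, beside 10.2% and 12.4% of all tested genes. The higher ones were SYNPO2, the actin-bundling synaptopodin 2 (0.56, adjusted p = 0.187 in limma without the block and 0.00890 with it), and PDLIM3, a Z-disc PDZ and LIM domain protein (0.37, 0.337 and 0.0365). The lower ones with the smallest p were MYLK, the myosin light chain kinase (-0.35, limma adjusted p 0.120 and 0.000535), CSRP2, a LIM protein of smooth muscle (-0.50, 0.218 and 0.00208), and SMTN, smoothelin (-0.29, 0.423 and 0.00100).

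Widely expressed partners of the actomyosin system were read next. All 24 listed genes were tested, with a median dox change of -0.10, none passing limma over all genes and 4 with an unadjusted p under 0.05 (13.0% of all tested genes). With the block 1 was higher and 4 were lower, beside 10.2% and 12.4% of all tested genes. The lower ones were MYH10, a non-muscle myosin heavy chain (-0.41, limma adjusted p = 0.000221), TPM3, another tropomyosin (-0.23, 0.00767), TMSB10, a thymosin that sequesters actin monomers (-0.31, 0.00132), and VCL, vinculin (-0.15, 0.0472). Between replicate numbers 15 of the 24 differed, beside 40.5% of all tested genes, with a median span of 0.26 beside 0.25 over all. The filamin gene FLNC, at 0.70, and the thymosin gene TMSB4X, at 0.95, had wide spans, the latter highest in replicate 3.

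Genes that control the phosphorylation of the myosin light chain included calmodulin and small GTPase genes with lower values in dox. Of 24 listed genes 22 were tested, none passed limma over all genes (5 had an unadjusted p under 0.05, beside 13.0% of all tested genes), and with the block 2 were higher and 6 lower, beside 10.2% and 12.4%. CALM3, a calmodulin gene, changed by -0.49 (SE 0.10, limma adjusted p 0.0833 and 0.000575 with the block). The small GTPase genes RHOC (-0.34, 0.105 and 0.000513) and RHOB (-0.31, 0.218 and 0.00259) and the phosphatase inhibitor gene PPP1R14B (-0.29, 0.350 and 0.00361) were lower with the block in limma as well, beside MYLK. The median change over the 22 genes was -0.03.

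SRF and its MRTF cofactors changed little with dox. Of 17 listed regulators 16 were tested, with none passing limma over all genes and 5 at an unadjusted p under 0.05, beside 13.0% of all tested genes. With the block 5 were higher and 1 lower, beside 10.2% and 12.4%. SRF changed by 0.02, MRTFA (MKL1 in the files) by -0.03 and MRTFB (MKL2) by 0.06, and none of the 3 passed with the block (limma adjusted p 0.821, 0.673 and 0.516). SRF had both replicate 1 libraries above the other 4, with a span of 0.54 (limma adjusted p = 0.00026 for the replicate number). GATA6, a zinc-finger factor known to act in vascular smooth muscle, was nearest to passing among all these genes (0.52, SE 0.09, limma adjusted p = 0.0513, and 0.000291 with the block). It passed with a minimum of 50 normalised counts (0.52, limma adjusted p = 0.0494) and, narrowly, with TMM scaling (0.53, limma adjusted p rounded to 0.05). ELK1, an ETS-type SRF partner (0.21), NFATC3 (0.25) and KLF4 (0.53), a repressor of smooth-muscle genes, were higher with the block, and the ETS factor gene ELK3 (-0.19) was lower. Their limma adjusted p-values lay between 0.252 and 0.376 without the block and between 0.0143 and 0.0396 with it. Of 18 striated-muscle genes, 1 passed the filter on low values, TNNT1, and 15 stayed below 0.1 FPKM in all libraries.

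Levels were compared between genes per length, which depended on the length used. The authors' FPKM equals their CPM divided by a gene width, and that width exceeded the span from start to end of the gene for 2131 of 13008 genes (16.4%), among them TAGLN, CNN2, TPM1 and TPM2. For 9 of the 10 genes it was 2.32 to 4.63 times the length of merged exons in GENCODE 29, and for MYL9 0.788 times. By FPKM the order in no dox was TAGLN2 (162 ± 6.83), MYL9 (112 ± 37.8), TPM2 (110.1 ± 26.8), CNN3 (53.3 ± 1.495), TAGLN (49.9 ± 28.9), TPM1 (40.5 ± 10.1), CNN2 (34.0 ± 3.80), ACTA2 (21.7 ± 16.6), CALD1 (14.3 ± 3.14) and CNN1 (0.147 ± 0.0544, SD, n = 3 each). Libraries of neighbouring genes in this order overlapped except between TAGLN2 and MYL9, TPM2 and CNN3, and CALD1 and CNN1.

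Per kilobase of merged exons MYL9 moved from the second place to the seventh (87.9 ± 29.8 CPM per kilobase in no dox, SD, n = 3), while TAGLN2 (376 ± 15.9) and TPM2 (315 ± 76.4) stayed at the top. CNN1 was last by either length in both groups. On this scale CNN1 stood at 1.95 ± 0.0654 CPM per kilobase in dox and 0.514 ± 0.190 in no dox (SD, n = 3 each). ACTA2, next above it, was at 50.2 ± 37.98 and 52.0 ± 39.7. CNN1 in dox thus remained below every library of the other 9 genes.

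**Figure D4:**
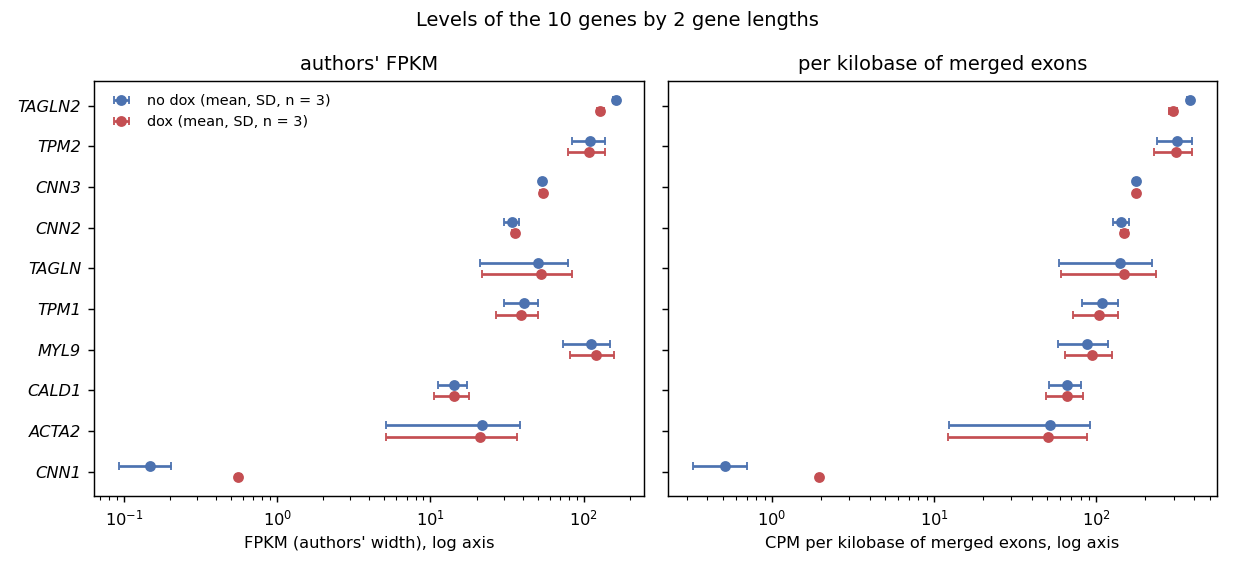
Mean level and SD (n = 3) of the 10 genes in dox (red) and no dox (blue) on log axes, as the authors' FPKM (left) and as CPM per kilobase of merged exons (right). CNN1 is lowest by both lengths, and MYL9 (112 FPKM in no dox) falls to 87.9 CPM per kilobase, below CNN2 and CNN3.

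Genes with a pattern over the 6 libraries most like that of CNN1 were sought by the root mean square distance between log2 values centred on each gene's own mean. The nearest was SDPR, a caveolar coat protein, at a distance of 0.146, with 827 ± 110 normalised counts with dox and 205 ± 58.7 without (SD, n = 3 each). It was followed by CACNA1G, a T-type calcium channel (0.206), DSC3, a desmosomal cadherin (0.255), MPP7, a membrane scaffold protein (0.286), and RSPO3, a secreted enhancer of Wnt signalling (0.297). Their log2 differences between dox and no dox ran from 1.57 for RSPO3 to 2.04 for SDPR. These genes were picked for their likeness to CNN1, so the values describe that likeness over 6 libraries and are not tested.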

How the data were processed

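Polyadenylated RNA of 6 libraries was measured by RNA-seq. Tools listed in the submitters' processing notes are TopHat, Trimmomatic, bcl2fastq and edgeR, with the build hg19 and no versions or roles. The authors deposited a signal of normalised counts for 13161 genes, with similar totals in all libraries, and the sources used here do not state its formula. They also deposited FPKM values for 57773 genes and a comparison table with CPM, log2 fold changes, a likelihood ratio score, p-values and adjusted p-values, per the file headers. How reads shared by near-identical genes (actins, tropomyosins, calponin pseudogenes) were counted is not stated in the sources used here, which leaves those values uncertain.

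The genes and lists were chosen with earlier results of these data known. Dox was compared with no dox by limma-trend (limma 3.58.1, R 4.3.3) on log2(normalised count + 1), two-sided, with 4 residual degrees of freedom. A gene needed 10 normalised counts or more in 3 libraries or more, which kept 13153 genes and removed 8. A gene was called when p, adjusted by Benjamini-Hochberg over all tested genes, was below 0.05, and fold changes of low genes are understated on this scale. All 10 genes were named, with the 5 members of smallest p in each list that was described for dox and the 5 genes nearest CNN1. Other list members given for their spread were chosen after their values were seen. Some list members that the rule names are not reported here. Deviations of same-numbered libraries correlated at 0.745, 0.726 and 0.768, so replicate numbers were taken to pair the libraries, though the labels do not say what they share. The block fit has 2 residual degrees of freedom, and p-values of both fits were adjusted over all tested genes. Every CPM value was a whole multiple of the smallest step (100% in each library, tolerance 0.01). Merged exon lengths, an alternative chosen after seeing the data, came from GENCODE 29 by gene ID, and upstream sequences from RefSeq (GRCh38.p14). The fits were also run on simulated data in which few genes had a replicate effect. These libraries differ from that setting, and nothing is read from that run. Figures were drawn with matplotlib 3.10.9 in Python 3.11.15.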

Additional observations from a re-analysis of the deposited data

How the results depend on the processing

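Alternatives were other pseudocounts, no filter or a minimum of 50 normalised counts, FPKM values, quantile, TMM and median-of-ratios scaling, a replicate block, and leaving out each library or, added after seeing the data, both libraries numbered 1. The 71 genes changed over the whole table became 16 with FPKM, 2965 with the replicate block and 3 to 44 with libraries left out. The count of the 9 genes besides CNN1 that changed was 0 in all of these except the replicate block, where it was 1 (TAGLN2), and the block changed no other call among the 9. The log2 change of CNN1 was 1.44 to 2.18 over 16 alternatives, 1.44 being on the FPKM scale. On that scale CNN1 passed the filter, 0.5 FPKM in 3 libraries, only through the dox group. It had 0.5445 to 0.5804 FPKM in dox and 0.1076 to 0.2092 in no dox. The pseudocount of 0.1 FPKM was near the no dox values, so 1.44 describes that setting and is no separate support. In the gene lists, 1 gene, GATA6, was called outside the replicate block, with the minimum of 50 and with TMM scaling. Values near 0 changed sign. That of CNN3 was 0.0139 with FPKM. With libraries left out CNN2 ran from -0.0108 to 0.138, TAGLN from -0.415 to 0.493, MYL9 from -0.173 to 0.346, ACTA2 from -0.672 to 0.519, TPM1 from -0.357 to 0.0962, TPM2 from -0.275 to 0.141 and CALD1 from -0.242 to 0.145, since leaving out 1 library unbalances the replicate numbers. The 5329 genes that differed between replicate numbers became 2798 with FPKM and 2816 to 6692 with 1 library left out, and of the 10 genes 6 to 9 did. The median change of all genes was -0.002 as deposited and 0.003 to 0.006 under the scaling alternatives. The edgeR and DESeq2 tests planned on recovered reads were not run, because 3 libraries hold fewer than 100 low CPM values to check the step on.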

Other observations

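An antisense gene within TPM1, RP11-244F12.3, had 135.3 and 179.3 normalised counts in the dox and no dox replicate 1 libraries and 64.37 to 112.0 in the other 4, the same high libraries as TPM1, and PCSK7 followed TAGLN in the same way. The FPKM widths above 100% of the gene span (TAGLN 202%, CNN2 120%) bear on any comparison of FPKM between genes, and not on a comparison of 1 gene between libraries.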
